A study of Mus musculus with 2 samples.

Results

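The introns described here lay inside an exon of an unannotated spliced transcript model in gastrocnemius muscle of the mouse. They were chosen by 4 conditions. The gene was annotated and its model had 2 or more exons. The model was of class NIC, which joins annotated splice sites in a new combination, or NNC, which uses at least 1 unannotated site. A single exon of the model contained the whole intron. All annotated protein-coding transcripts that span the intron removed it, so that it is called a shared intron below. The rule found 3365 such introns in 1691 genes, out of 112767 shared introns in 11728 genes with reads, or 2.98%. The samples were 2 libraries of long-read RNA sequencing, which the labels call biological replicates 1 and 2. They form 1 group: the mice were female, of strain B6CASTF1/J, and 18 to 20 months old. This strain is the first-generation cross of C57BL/6J and CAST/EiJ. Each library began from 2 µg of total RNA and was given ERCC and SIRV spike-in RNAs. The labels give both libraries the same donor record and do not say how many animals each came from, so a p-value here speaks of these libraries alone, and their difference may be technical. The tables held 1175829 reads on 80416 models in replicate 1 and 1017384 reads on 74962 models in replicate 2. Muscle markers were abundant in both libraries, with all 8 of 8 detected and 348147 and 339115 reads in all. Fibroblast markers held 363 and 440 reads and each of the 5 other marker lists held 90 reads or fewer, with Cd68 of macrophages and Pax7 of satellite cells at 0.

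Introns are removed from a transcript by the spliceosome, which recognises a 5′ splice site that usually begins with GT, a branch point and a 3′ splice site that ends with AG. A transcript that keeps an intron is often held in the nucleus or, when the intron brings a stop codon into the reading frame, degraded in the cytoplasm by nonsense-mediated decay. Retention is a known means by which genes for splicing proteins limit their own output. A retained intron can also mark a transcript whose splicing was not finished when the RNA was isolated.

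The sequences below are from the transcripts of GENCODE M21 (GRCm38, the same coordinates as mm10), and are those of the reference strain and not of the CAST parent. The first set is from the 3 introns with the highest shares from internal exons, a measure explained below. As these introns are long, only their ends are shown: the last 3 bases of the exon and the first 20 of the intron come first, with the first 6 intron bases in capitals. The last 22 bases of the intron and the first 3 of the next exon follow, with the closing AG in capitals.
Rsrp1 intron 3 5′ site: gagGTAAGTgccttcaggaagct
Rsrp1 intron 3 3′ site: ttaaaattctcttcctctttAGcat
Srsf5 intron 6 5′ site: cagGTTTGTtgaaatacagtttt
Srsf5 intron 6 3′ site: aacataattgtcttgtgttaAGgat
Ddx5 intron 11 5′ site: tagGTTAGTacaaactcgaattc
Ddx5 intron 11 3′ site: gccacactgcaacaccttacAGatg
These lie at chr4:134925433-134926734 on the plus strand, chr12:80947866-80949094 on the plus strand and chr11:106782694-106783958 on the minus strand, all between coding exons. The introns are 1302, 1229 and 1265 bases long. The first stop codon in the frame of the upstream exon begins at intron base 49 in Rsrp1 (TGA), 7 in Srsf5 (TGA) and 3 in Ddx5 (TAG). The 5′ site of Rsrp1 reads GTAAGT, whereas those of Srsf5 and Ddx5 read GTTTGT and GTTAGT.

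The next introns were picked after their values were seen, because they are short enough to be shown whole and, for Sdr39u1 and Mapk12, because they hold no stop codon in frame. In these, capitals mark the first stop codon in the reading frame of the preceding exon.
Carns1 intron 6: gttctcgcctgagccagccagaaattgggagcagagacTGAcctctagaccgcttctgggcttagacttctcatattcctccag
Rab24 intron 5: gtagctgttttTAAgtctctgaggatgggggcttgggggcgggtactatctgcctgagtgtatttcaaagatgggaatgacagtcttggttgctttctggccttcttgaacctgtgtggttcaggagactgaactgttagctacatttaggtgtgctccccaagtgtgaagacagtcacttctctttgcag
Dvl1 intron 7: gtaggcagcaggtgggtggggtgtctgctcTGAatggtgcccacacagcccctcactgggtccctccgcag
Dvl1 intron 8: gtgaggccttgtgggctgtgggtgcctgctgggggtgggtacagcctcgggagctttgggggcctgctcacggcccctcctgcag
Sdr39u1 intron 2: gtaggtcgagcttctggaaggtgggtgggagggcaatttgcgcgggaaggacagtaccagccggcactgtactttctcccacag
Mapk12 intron 9: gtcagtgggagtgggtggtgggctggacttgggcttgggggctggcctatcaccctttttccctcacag
Carns1 intron 6 is at chr19:4170912-4170995 (minus strand) and Rab24 intron 5 at chr13:55320554-55320744 (minus strand). Introns 7 and 8 of Dvl1 are neighbours at chr4:155854660-155854730 and chr4:155854801-155854885 (plus strand). The Sdr39u1 and Mapk12 introns are at chr14:55899730-55899813 and chr15:89132832-89132900, both on the minus strand. Dvl1 intron 8 has no stop in frame, but its 85 bases shift the frame of the next exon. The introns of Sdr39u1 (84 bases) and Mapk12 (69 bases) have no stop in frame and a length divisible by 3, so the printed reading frame runs through them.

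For each intron, the reads of all spliced models of the gene that held it in an exon were counted as retaining, and the reads of models with exactly that intron as splicing. The retained share is retaining reads over both. The tables give the outer ends of each model and not those of each read, and whether the 2 differ could not be checked from them. When the holding exon is the first or last of the model, a read may therefore not cover the whole intron. When the holding exon is internal, spliced on both sides, each read of the model must cross it. Shares from internal exons are therefore given beside, and for single introns in place of, those from all spliced models. Of the 3365 introns, 2821 in 1521 genes were held by an internal exon of at least 1 NIC or NNC model, and 544 by a terminal exon only.

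Most of the introns were seen once. A single NIC or NNC read held 2421 of them, 2 to 4 reads held 753, and 5 or more held 191. Replicate 1 contributed 2181 introns and replicate 2 contributed 1801, of which 617 were found in both. Detection in both libraries rose with reads, as it must: 183 of the 191 introns with 5 or more reads and 50 of the 50 with 10 or more were found in both. Retention was rare beside splicing. Summed over the introns, NIC and NNC models held 3512 retaining reads in replicate 1 and 2851 in replicate 2, counting a read once for each intron it held. All spliced classes held 7091 and 5908, and models that spliced the introns held 4468008 and 4664476. The gene Atp2a1 weighed on these sums. For introns with at least 20 retaining or splicing reads in each library, the pooled share was 0.132% in replicate 1 and 0.102% in replicate 2. Without Atp2a1 it was 0.303% and 0.258%. No splicing read was found for 93 of the introns.

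At least 20 informative reads (retaining or splicing) in each library were found for 2008 of the 3365 introns, and the shares below are for these. They were 7.09% of the 28314 shared introns with as many reads. Their median retained share was 0.806% in replicate 1 and 0.350% in replicate 2, or 0.252% and 0% with internal exons only. The median over all 28314 was 0 in both libraries. Each member had been chosen for a retaining read in at least 1 library, so these medians are a description. The mean share of the libraries with internal exons reached 1% for 776 introns, 5% for 78, 10% for 28, 20% for 6 and 50% for 2.

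The highest internal-exon shares were in Rsrp1 and in 2 genes of RNA processing, Srsf5 and Ddx5. They were picked by this measure after their values were seen, so that their shares are a description. The intron named below was spanned by 1 annotated protein-coding transcript in Rsrp1 and 1 in Ddx5, and by 5 in Srsf5. In Rsrp1, which encodes an arginine and serine rich protein, intron 3 was retained by 171 reads and spliced by 22 in replicate 1, a share of 88.6% (95% Wilson interval 83.3 to 92.4). In replicate 2 the numbers were 116 and 19, or 85.9% (79.1 to 90.8). This intron was thus kept more often than removed in both libraries, at 87.3 ± 1.89% (SD, n = 2). Only 1 of the retaining reads in replicate 1 and 3 in replicate 2 were in NIC or NNC models, since an annotated transcript of class retained_intron also keeps this intron. Srsf5 encodes a splicing factor of the SR family. Its intron 6 was retained by 30 reads and spliced by 34 in replicate 1 (46.9%, 35.2 to 58.9), and retained by 21 and spliced by 15 in replicate 2 (58.3%, 42.2 to 72.9). The 2 intervals overlap, and the mean was 52.6 ± 8.10% (SD, n = 2). Of these reads, 25 and 19 were in NIC or NNC models. Ddx5 encodes a DEAD-box RNA helicase that takes part in splicing and transcription. Its intron 11, in which the small RNA gene Gm25994 lies, was retained by 110 internal reads and spliced by 151 in replicate 1 (42.1%, 36.3 to 48.2). In replicate 2 it was retained by 81 and spliced by 141 (36.5%, 30.4 to 43.0). The mean was 39.3 ± 4.00% (SD, n = 2). Of all its retaining reads, 121 and 91 with terminal exons included, 24 and 12 were in NIC or NNC models, and the annotation holds this intron in a transcript of class nonsense_mediated_decay. The intervals cover counting error only, as reads without molecular identifiers need not be independent molecules.

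Below these 3, shares were lower and rested on few reads. Entr1, which encodes a regulator of endosome traffic, kept intron 6 in 7 reads and removed it in 25 in replicate 1, and in 7 and 23 in replicate 2 (21.9% and 23.3%). Carns1 encodes the synthase of carnosine, a dipeptide of muscle. Its intron 6 was kept by 4 reads and removed by 18 in replicate 1, and by 8 and 25 in replicate 2 (18.2% and 24.2%). Rab24, a small GTPase linked to autophagy, kept intron 5 in 12 reads and removed it in 51 in replicate 1, and in 7 and 35 in replicate 2 (19.05% and 16.7%). For these 3 introns the libraries were close and their intervals overlapped. Others came mainly from 1 library. Metap1d, a mitochondrial methionine aminopeptidase, kept intron 3 in 8 reads against 16 in replicate 1 (33.3%) but in 0 against 27 in replicate 2, where the interval reached 12.5%. In Dus3l, which modifies uridines of transfer RNA, intron 6 had 10 reads against 19 (34.5%) and 1 against 22 (4.35%). In Mlxipl, a transcription factor that responds to carbohydrate, intron 11 had 10 against 32 (23.8%) and 2 against 37 (5.13%). The test of the libraries given below called none of these 3 after adjustment. Of the 12 introns with the highest internal-exon shares, the others were in Rasa4 and Pnisr, besides further introns of Entr1 and Carns1, with means from 16.0% to 21.97%.

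**Figure D1:**
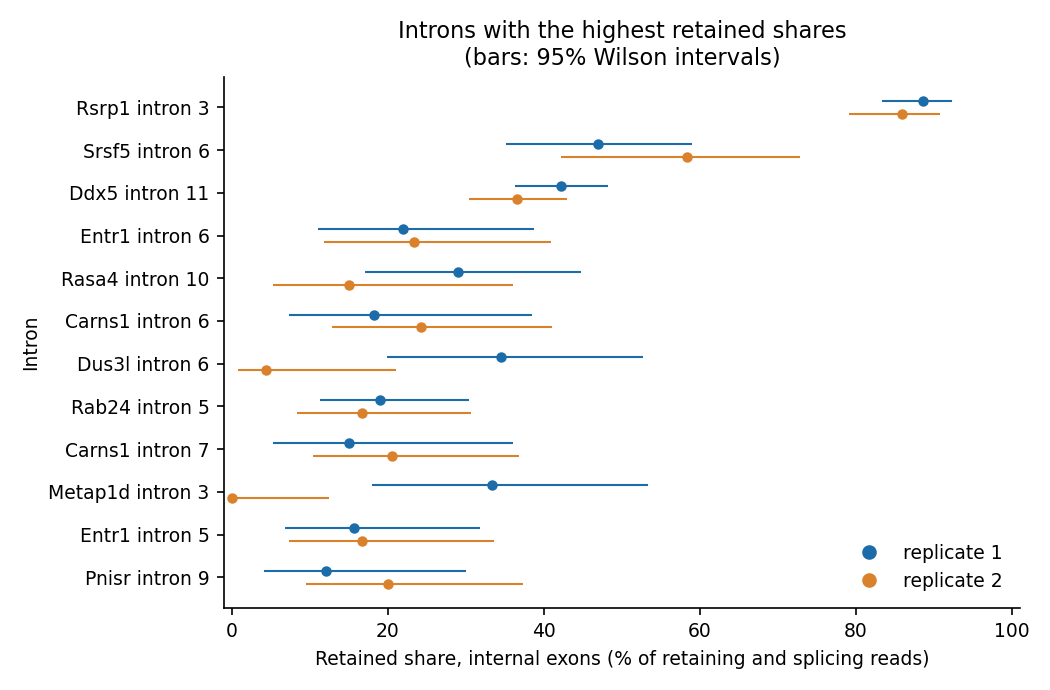
Retained share from internal exons (horizontal axis, percent of retaining and splicing reads) of the 12 introns with the highest mean, 1 row each, in replicate 1 (blue) and replicate 2 (orange); bars are 95% Wilson intervals. Rsrp1 intron 3 stands at 88.6% and 85.9%, Srsf5 intron 6 and Ddx5 intron 11 between 36.5% and 58.3%, and the intervals of the rest are wide.

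Retention was concentrated on a single intron in the 3 genes with the highest shares and covered neighbouring introns in Entr1 and Carns1. In Srsf5, introns 3, 4 and 5 had 0 retaining reads in either library, with 69 to 70 splicing reads in replicate 1 and 35 to 37 in replicate 2, and intron 7 had 1 and 0. In Ddx5, every shared intron but 11 had an internal-exon share of 1.12% or less. Intron 12 is the last there, which an internal exon can hardly hold, so its internal-exon share of 0 says little. With all spliced models, 11 and 10 reads retained intron 12 against 270 and 228 that spliced it. By that count intron 10 had 7 and 7 against 266 and 228, and intron 11 had 121 and 91 against 151 and 141. In Rsrp1, intron 2 had internal-exon shares of 0.485% and 2.11%. Introns 1 and 4 are the first and last there, which an internal exon can hardly hold, so their internal-exon share of 0 says little. With all spliced models intron 1 stood at 3.40% and 3.50%, and intron 4 at 0 and 0.671%. Entr1 differed, with all 5 introns from 4 to 8 retained in both libraries. Introns 4, 5 and 6 lay between 12.9% and 23.3%. Introns 7 and 8 had 6 reads each in replicate 1 (20.7% and 20.0%) but 2 and 1 in replicate 2 (7.69% and 3.70%). In Carns1, introns 5, 6 and 7 were retained at 14.3% to 24.2%, whereas introns 1 to 4 had 0 retaining reads, with 12 to 16 splicing reads in replicate 1 and 24 to 26 in replicate 2. Neighbouring introns can be held by the same read, so that they are not independent counts.

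**Figure D2:**
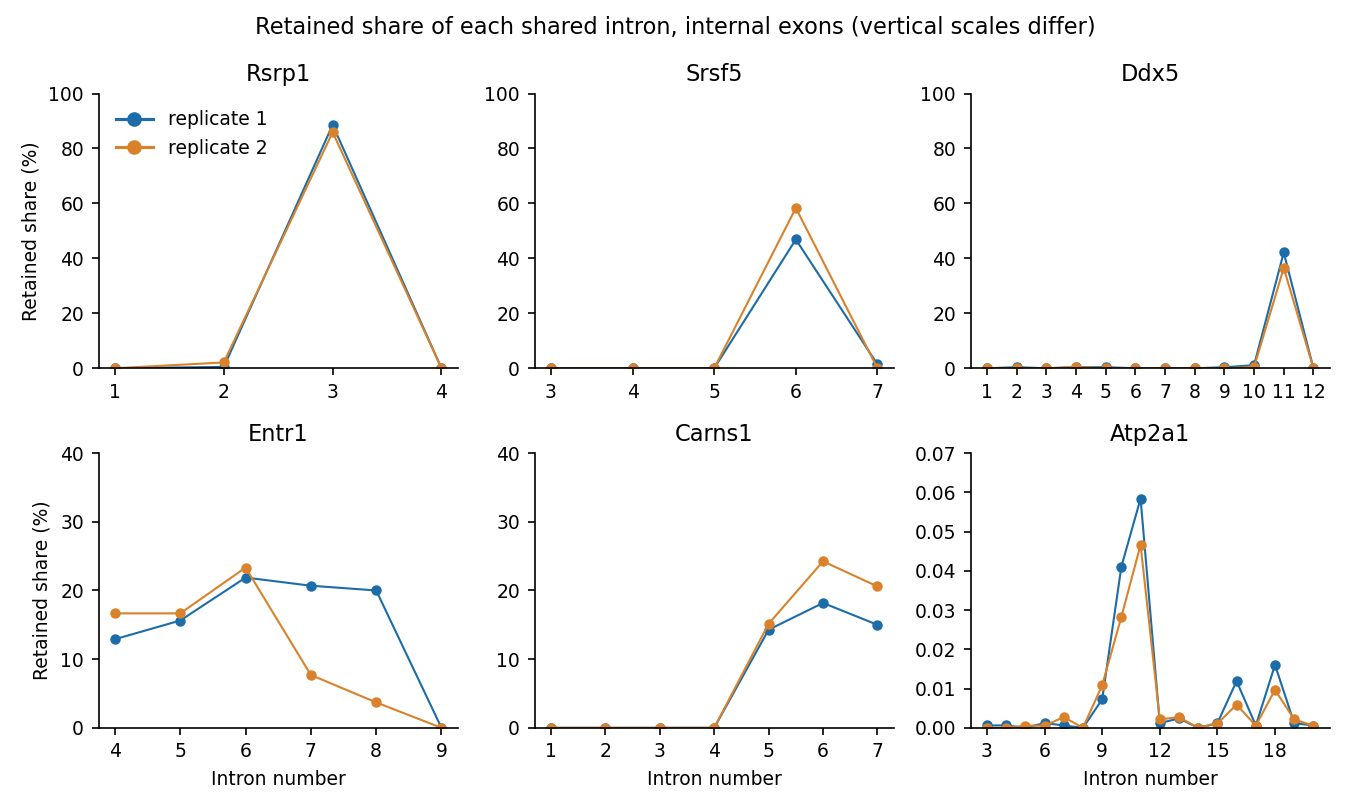
Retained share from internal exons (vertical axis, percent; scales differ) against intron number from the 5′ end in 6 genes, for shared introns with at least 10 such informative reads in each library; introns 1 and 2 of Atp2a1 are left out. A single intron stands out in Rsrp1, Srsf5 and Ddx5, neighbouring introns do in Entr1 and Carns1, and no value exceeds 0.0584% in Atp2a1. First and last introns can hardly be held by an internal exon.

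The 2 introns with the most NIC and NNC reads were in Atp2a1, where retention was a very small share. This gene, which encodes the fast-fibre pump that returns calcium to the sarcoplasmic reticulum, had 18 of its 20 shared introns in the set. Intron 11 (chr7:126452787-126453022) was held by 64 and 75 NIC or NNC reads, more than any other intron. With 97 and 86 internal retaining reads against 165973 and 184360 splicing reads, its share was 0.0584% (0.0479 to 0.0712) and 0.0466% (0.0378 to 0.0576). Intron 10, of the same length of 236 bases, stood at 0.0411% and 0.0283%. Most other Atp2a1 introns were far lower: intron 3 was retained by 1 read and spliced by 163300 in replicate 1, and retained by 0 and spliced by 181859 in replicate 2. Introns 10 and 11 were the highest of introns 3 to 20 in both libraries. Introns 1 and 2 were rarely spliced as annotated, with 4 and 36 splicing reads in replicate 1 and 6 and 24 in replicate 2, and intron 2 was retained by 4 and 6 reads there.

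Other introns with many NIC and NNC reads had larger shares, and a few had small ones. Mss51, a mitochondrial protein of muscle, kept intron 3 in 43 and 8 internal reads against 760 and 222 (5.35% and 3.48%) and intron 4 in 36 and 7 against 777 and 226 (4.43% and 3.00%). Ndrg2 intron 4 stood at 1.11% and 0.754%. Intron 5 of Ankrd23, an ankyrin repeat protein of the sarcomere, stood at 0.650% and 0.628%. Myoz1, a Z-disc protein, kept intron 4 in 12 and 15 internal reads against 3578 and 2100 (0.334% and 0.709%). Intron 2 of the skeletal actin gene Acta1 was retained by 13 and 9 reads against 63464 and 48373 (0.0205% and 0.0186%). Dvl1, a Wnt signalling protein, kept its neighbouring introns 7 and 8 at 6.91% and 5.01% and at 6.29% and 6.80%. Levels of retention and read number thus ran apart: Acta1 intron 2 and Rab24 intron 5 had similar numbers of NIC and NNC reads, 12 and 9 against 12 and 7, at shares of 0.0205% and 0.0186% against 19.05% and 16.7%. The 3 introns of Vwa3b in this group had 13 and 11 reads and 0 splicing reads. One of them is an annotated gap of 1 base, so that its share of 100% does not describe splicing choice. The other 2 are in the 3′ UTR and had 0 internal reads, so that a read may not cover the whole intron. Each of the 3 was spanned by 1 annotated protein-coding transcript, and why no read spliced them was not tested.

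Retained introns were short. Among introns with at least 20 informative reads in each library, those in the set had a median length of 347 bases and an interquartile range of 139 to 875. All 28314 had a median of 1065 and a range of 343 to 2519. Introns under 100 bases made up 17.6% of the set and 7.60% of all, and those over 5000 bases 0.199% and 11.5%. Read the other way, 16.4% of shared introns under 100 bases were in the set, 12.03% from 100 to under 200, 12.5% from 200 to under 500, 7.99% from 500 to under 1000, 5.44% from 1000 to under 2000, 2.14% from 2000 to under 5000 and 0.122% from 5000 up. Depth moved with membership, since the set held 5.10% of introns with 40 to under 100 informative reads over both libraries and 19.6% of those with 1000 or more. Within each depth class the shortest introns still held the highest percentage. It fell from 11.6% under 100 bases to 1.48% at 2000 to under 5000 bases in the lowest depth class, and from 32.8% to 6.63% in the highest. The holding exon grows with the intron, and whether long molecules were read less often was not tested. Each library showed the same order for the shortest and longest classes: 12.3% under 100 bases against 0.122% from 5000 in replicate 1, and 8.64% against 0 in replicate 2. Genes give several introns, so no test was made over introns.

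**Figure D3:**
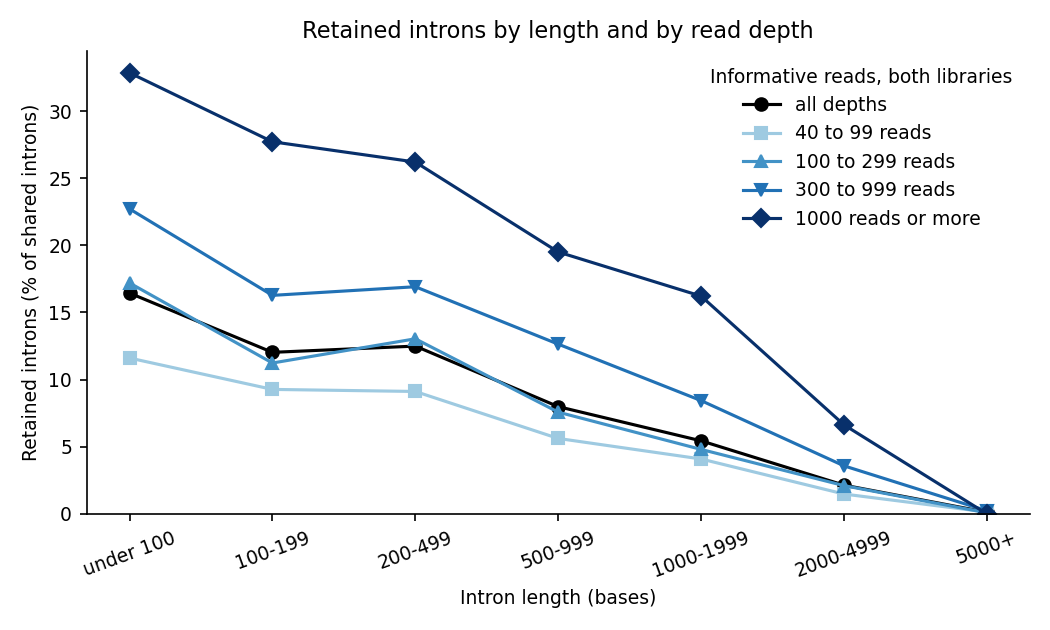
Percentage of shared introns that were retained in an NIC or NNC model (vertical axis) by intron length in bases (horizontal axis), for all introns with at least 20 informative reads in each library (black) and in 4 classes of informative reads over both libraries (blue). In the lowest depth class it falls from 11.6% to 1.48%, and in the highest from 32.8% to 6.63%, between introns under 100 bases and those of 2000 to under 5000.

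Of the 3365 introns, 3316 (98.5%) were between coding exons, 32 in the 5′ UTR and 17 in the 3′ UTR. With enough reads the coding share was 99.4%, against 97.7% of all 28314. Among those with enough reads, 91.7% were internal, 2.69% first and 5.58% last introns, against 83.0%, 7.04% and 9.67% of all. The class names shape this: a model that keeps only the first or last intron has a part of an annotated chain and is named an incomplete splice match (ISM), which the rule leaves out, and a first or last intron can hardly be held by an internal exon. Along the spliced transcript the median position was 42.9% from the 5′ end against 36.0% for all, and along the gene 69.3% against 64.8%. With the transcript cut into 3 equal parts, the middle part held 51.0% of the introns and 41.0% of all. The longest in the set had 10631 bases.

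Many of the introns were already annotated as kept in other transcripts. An annotated transcript of the same gene that is not protein-coding holds 871 of the 3365 (25.9%) in an exon, mostly of class retained_intron (788). With enough reads the figure was 24.4%, against 6.36% of all 28314 introns. Conversely, 27.2% of shared introns with such a transcript were in the set and 5.73% of those without one, and this order held in each of the 4 depth classes. A known retained intron is NIC or NNC here only when the rest of its chain differs from the annotated one. Small RNA genes lay in 21 introns of the set (0.624%). Among introns with enough reads they lay in 16 of the set, or 0.797%, against 0.816% of all 28314.

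Sequence was at hand only for introns that an annotated exon covers, 876 of the set. Of these, 865 began with GT and ended with AG, 8 were GC-AG and 3 had other ends. Among the 491 with enough reads, the first 5 bases were GTAAG or GTGAG in 48.9%, against 54.7% of 1316 other covered introns with enough reads, and G stood at base 5 in 77.4% and 79.6%. The median content of G and C was 54.3% and 50.3%, and the median length 190 and 257.5 bases. The 19 bases that end 4 before the exon had a median of 73.7% C or T in both. A stop codon in frame was found in 422 of the 491 (85.9%), against 89.5% of the others, and the median first stop began at base 32 and 33. Only 15 of the 491 introns (3.05%) had neither a stop in frame nor a length that shifts the frame, against 2.38% of the others. Among these 15, Sdr39u1 intron 2 was retained by 3 internal reads and spliced by 102 in replicate 1, and by 2 and 60 in replicate 2. Mapk12 encodes a p38 kinase of muscle, and its intron 9 was retained by 2 and spliced by 146, and by 4 and 147. Sema6c intron 18 had 3 against 104 and 4 against 149. These shares were between 1.35% and 3.23%, and the 3 introns were named after their values were seen. Lengths divisible by 3 made up 31.6% of the set with enough reads and 33.3% of all.

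The models that held these introns were rare and mostly of 1 read. There were 1912 in replicate 1 and 1529 in replicate 2, which is 7.16% and 5.84% of NIC and NNC spliced models but 0.971% and 0.718% of their reads. A single read supported 89.6% and 89.9% of them. NIC made up 83.2% and 84.1%. Retention was the only difference from an annotated chain in 55.9% and 54.4%, and the other introns of the model were all annotated in 72.7% and 70.9%. One intron of the set was held by 68.8% and 67.5% of the models, 2 by 18.5% and 18.8%, and 3 or more by 12.7% and 13.7%. Among models with 2 or more, a single exon covered all of them in 247 of 597 and 183 of 497. The longest series was in Acadvl, which encodes the very long-chain acyl-CoA dehydrogenase of mitochondria: 1 model kept 11 introns in replicate 1 and 1 kept 13 in replicate 2. The same chain of introns was found in both libraries for 205 models, which held 22.04% and 23.4% of the retaining reads. The set had 1 intron in 933 genes, 2 to 4 in 642 and 5 or more in 116. Myh4, the myosin of the fastest fibres, had the most with 19 of 38, followed by Atp2a1 and Acadvl (15 of 17). Srpk3, a muscle kinase of splicing factors, had 12 of 14. Over all genes 2.98% of shared introns were in the set. An intron enters with 1 NIC or NNC read, so that the count of a gene moves with its depth.

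Gene groups differed in how many introns entered the set and in their retained shares. Both move with depth, since an intron enters with 1 retaining read, which is a larger share where reads are fewer. The shares of the groups are therefore a description. Of 640 sarcomere introns with enough reads, 114 (17.8%) were in the set, against 7.09% of all, but their median share was only 0.0303% and 0.00789%, or 0.0119% and 0% with internal exons. Their median of informative reads was 1601, against 110 over all genes, and depth moves with membership as given above. The group of 256 introns of splicing factors and their kinases had 32 in the set (12.5%) at a median of 82 informative reads. Their median share was 2.67% and 1.30%, against 0.806% and 0.350% for the whole set. With internal exons it was 1.26% and 0.215%, against 0.252% and 0%. The mean internal-exon share reached 1% in 18 of the 32 and 5% in 8, against 776 and 78 of the 2008 in the whole set. Glycolysis and glycogen genes had 30 of 258 (11.6%), with a median share of 0.0789% and 0.0234%, or 0.0445% and 0.0124% with internal exons. Respiration and citric acid cycle genes had 44 of 358 (12.3%), with a median of 0.177% and 0.0633%, or 0.0430% and 0%. Calcium handling had 26 of 278 (9.35%) and protein breakdown 16 of 171 (9.36%). Ribosomal proteins had 18 of 235 (7.66%), and chaperones and stress genes had the fewest with 6 of 160 (3.75%). Introns at 5% or more were found in splicing factors and, with 1 intron of Atp2a1, calcium handling, and in none of the other 6 groups. The Atp2a1 intron is intron 2, whose 4 and 6 retaining reads give a mean of 15.0 ± 7.07% (SD, n = 2). This mean is 0 when the holding exon must reach 20 bases past the intron and 70.8% with Known, NIC and NNC models only. The annotated exon between introns 1 and 2 is shorter than 20 bases. An exon that starts there cannot reach so far past intron 2, so the value of 0 decides nothing. The median length of introns with enough reads also differed, from 376 bases in ribosomal protein genes to 1071 in protein breakdown genes.

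The libraries were compared intron by intron, which sets 1 library against another and knows counting error only. With all spliced models, 13 of the 2008 introns differed in retained share (2-sided Fisher's exact test, Benjamini-Hochberg adjusted p below 0.05 over 28314 introns), that is 0.647%, against 0.0636% of all introns. An intron without a retaining read in either library cannot be called. Each of the 2008 was chosen for a retaining read, so both percentages are a description. Of the 13, 11 were higher in replicate 1, where the percentage over all introns was 0.053, and 2 in replicate 2, where it was 0.0106. Those higher in replicate 1 were Pfkm introns 7, 12, 14, 15, 16 and 20, Eno3 introns 6 and 7, Tnnc2 intron 1, Hr intron 6 and Arfgap2 intron 9. Pfkm and Eno3 encode the muscle forms of phosphofructokinase and enolase, and all 8 of the 13 that fell in the glycolysis list, which held 30 of the 2008 introns, were in these 2 genes. Another 3 were in the sarcomere list. Several Pfkm introns had equal numbers of terminal-exon reads in replicate 1, with 45 in introns 12 and 16 and 56 in introns 14 and 15, so these may not be independent counts. In Eno3 intron 6, 118 reads retained and 8044 spliced in replicate 1, against 4 and 6636 in replicate 2 (1.45% and 0.0602%; adjusted p = 8.4e-22 by Fisher's exact test). In Pfkm intron 14 the numbers were 57 and 3718 against 1 and 3961 (1.51% and 0.0252%; adjusted p = 1.9e-13 by Fisher's exact test). Both introns higher in replicate 2 were in Myh4, with 162 retaining reads against 2 in intron 9 and 171 against 8 in intron 29.

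These differences lay mostly in terminal exons. Of the Eno3 intron 6 reads in replicate 1, 108 of 118 were in models whose first or last exon held the intron, as were 56 of 57 in Pfkm intron 14 and 161 of 162 in Myh4 intron 9 in replicate 2. Pfkm intron 7 was the most mixed, with 31 of its 66 reads in replicate 1 in terminal exons and 0 of 28 in replicate 2. With internal exons only, Eno3 intron 6 had 10 and 4 reads (0.124% and 0.0602%) and Pfkm intron 14 had 1 and 1. By that count the adjusted test called 0 of 2008 introns and 0 of 28314, or 0%. An unadjusted p below 0.05 by Fisher's exact test was found for 18 of the 2008 and 19 of the 28314. Introns without an internal retaining read could not reach it. With the scatter between the libraries added to counting error, none of the 13 was called either. Retained shares were higher in replicate 1 for 1108 introns, higher in replicate 2 for 896 and equal for 4. This order moves with detection, as replicate 1 held more of the NIC and NNC reads that define the set. The RNA of both libraries was from whole muscle, in which fewer cells of a type and less RNA per cell cannot be told apart.

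**Figure D4:**
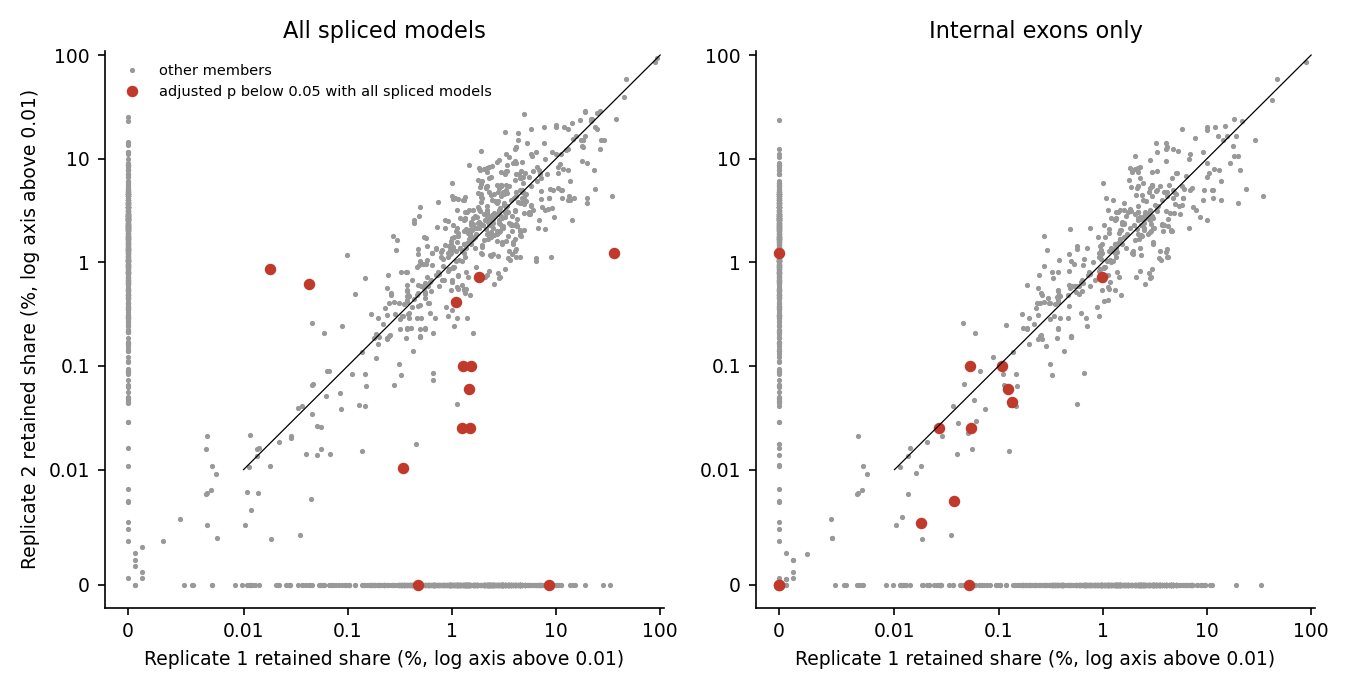
Retained share in replicate 1 (horizontal axis) and replicate 2 (vertical axis), in percent on axes that are logarithmic above 0.01, for the 2008 introns with enough reads, from all spliced models (left) and from internal exons (right); the line marks equality. The 13 introns that differed with all spliced models (red) lie off the line on the left, and on the right none of them has an adjusted p below 0.05.

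Terminal exons also gave some of the highest shares from all spliced models. In Prkab2, the beta 2 subunit of the AMP-activated kinase, intron 1 of the 5′ UTR had 241 retaining and 15 splicing reads in replicate 1 and 291 and 20 in replicate 2 (94.1% and 93.6%), with 0 internal reads. The 2 libraries were nearly equal here. Tmem52 intron 1 (26.3% and 29.2%), Ndufaf4 intron 1 (18.9% and 27.9%), which belongs to an assembly factor of respiratory complex I, and Cpeb1 intron 11 (37.5% and 24.2%), the last of a gene for a translation regulator, likewise had 0 internal reads. All of these are first or last introns, which an internal exon can hardly hold. Of the retaining reads, only 0 and 2 in Prkab2, 1 and 0 in Tmem52 and 0 and 1 in Ndufaf4 were in NIC or NNC models. In Cpeb1 6 and 5 were. Over the whole set, ISM models with a terminal holding exon gave 2898 of the 7091 retaining reads in replicate 1 and 2588 of 5908 in replicate 2. NIC models with an internal exon gave 2750 and 2239.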

How the data were processed

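The deposited tables give raw counts of long reads per transcript model in each library, per the file headers, and the deposited annotations give each model's exons on mm10. The other deposited columns are the exon number and length of each model, per the file headers. The sources used here do not name the aligner, the filters on models or any version. The annotated part was compared with GENCODE M21: all 141862 transcripts had the same exons.

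Shared introns, holding exons and reads were found with scipy 1.17.1, pandas 2.3.3 and numpy 2.4.6 under Python 3.11.15, and plots used matplotlib 3.10.9. An exon held an intron when it reached at least 1 base past it on both sides. Shares were taken at 20 or more informative reads in each library, with Wilson 95% intervals. Depth therefore limits most introns to large differences. Fisher's exact test was adjusted by Benjamini-Hochberg over all shared introns with enough reads, and tested on simulated data. Reading frames were checked against transcript sequences.

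The introns and gene lists were chosen with earlier results of these data known. Introns were named when among the 20 with the most NIC and NNC reads, the 10 with the highest share, the called ones, the 3 longest or shortest, or the leaders of a gene list. The ranking by internal-exon share and the count from internal exons were added after the data were seen, as were the introns named for an open reading frame. Some named introns are not reported here.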

Additional observations from a re-analysis of the deposited data

Results flagged for a closer look

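Single-exon models were outside the counts above, because they carry no splice that shows that the RNA was processed. They held 25 of the introns with more than 3 reads in replicate 1 and 16 in replicate 2. Introns 35 to 37 of Myh4, which has 38, were covered by 403 and 232 reads of such models, against 20141 and 28390 reads that spliced intron 35. Des intron 7 had 282 in replicate 1 and 0 in replicate 2, Ak1 intron 5 had 130 and 0, and Tnni2 intron 7 had 0 and 149. A single-exon model's ends need not be those of each of its reads, and where the reads came from was not tested.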

How the results depend on the processing

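The number of introns was 3365. It was 2093 with at least 2 coding transcripts spanning the intron, 944 with at least 2 NIC or NNC reads and 617 with models in both libraries. With 1 library left out it was 1801 to 2181. The median length of 347 bases was 316, 295 and 287 under the first 3 settings and 322 to 350 with 1 library left out. The median of the mean retained share, 1.00%, was 1.39% at 10 and 0.510% at 50 informative reads, and 0.350% to 0.806% with 1 library alone. An intron with fewer reads needs a larger share to hold 1 read. The 13 differences between the libraries became 30 with single-exon models counted as retaining and 24 when only introns with 5 or more retaining reads were tested, which adjusts over 454 introns. They became 0 with Known, NIC and NNC models only, 0 with scatter between the libraries added (Pearson chi-square divided by 8.76) and 0 with internal exons only, a count added after the data were seen. In replicate 1 minus replicate 2, 5 differences in percentage points changed sign with Known, NIC and NNC models: Hr intron 6 (-1.67), Myh4 introns 9 (0.00598) and 29 (0.0563), and Pfkm introns 14 (-0.0197) and 15 (-0.243). With internal exons 4 did: Hr intron 6 (-1.23), Myh4 introns 9 (0.0127) and 29 (0.0301), and Pfkm intron 15 (-0.0473). Most reads behind the 13 differences were in terminal exons. Of the named introns, the mean share moved by more than the spread of the libraries for 19 with internal exons, 20 with Known, NIC and NNC models and 24 with retaining reads of NIC and NNC models only, which took Rsrp1 intron 3 from 87.3% to 8.99% and Ddx5 intron 11 from 41.9% to 10.8%. No paired analysis was possible because there is 1 group.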
